A study of Mus musculus with 10 samples.

Results

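Deadenylase adaptors are RNA-binding or bridging proteins that bring the enzymes of poly(A) tail shortening to chosen mRNAs. The 9 genes described here are Zfp36, Zfp36l1 and Zfp36l2 (the TTP family), Btg1, Btg2, Btg3, Tob1 and Tob2 (the BTG/TOB family) and Pum2 (a Pumilio protein), selected by symbol from the 51467 genes of the count table. Of these, 8 passed the filter on low counts and Btg3 did not. TTP family proteins hold AU-rich elements in 3′ UTRs with a pair of zinc fingers and recruit the CCR4-NOT complex, whose deadenylases then shorten the tail. BTG and TOB proteins dock on the CAF1 deadenylase and are best known as antiproliferative factors, and Pumilio proteins bind a short UGUA-containing element and also recruit CCR4-NOT. Several of the genes, Zfp36 and Btg2 above all, belong to the immediate early class that is transcribed within minutes of a growth signal.

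Messenger RNA was measured by 3′-end sequencing (QuantSeq) in mouse embryonic stem cells (ESCs) kept in serum, LIF and 2i, a pair of kinase inhibitors that block MEK and GSK3. There were 3 libraries of wild-type (WT) V6.5 cells. Another 3 came from DGCR8 KO cells, which lack the partner of Drosha needed to make canonical miRNAs, and 4 from DDX6 KO cells, which lack an RNA helicase, with 2 from each of 2 clones. The DDX6 KO clones were made with CRISPR from the V6.5 line. The methods list the DGCR8 KO line as an earlier one without naming its parent, so loss of DGCR8 and the history of that line cannot be told apart. The study asks how the loss of DDX6 or of all miRNAs affects mRNA stability, translation and mRNA levels. Only mRNA levels are used here. For the adaptors the comparison asks whether the factors that direct deadenylation change with miRNAs or with DDX6. No source used here says whether the libraries of a group came from separate cultures, so p-values measure the spread between these libraries, which may be technical.

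The libraries held between 2131156 and 4745083 counts. Levels are given as CPM, counts scaled to a common normalised library total, and the floor of detection was set at 3 counts, or 0.669 to 1.44 CPM. In DGCR8 KO libraries Dgcr8 stood at 20.6% of the WT mean, and Ddx6 stood at 26.4% of it in clone 1 and 6.02% in clone 2. The 8 ESC markers summed to 3090 to 3740 CPM in every library, with 1 higher and 3 lower in DGCR8 KO than in WT and 1 higher and 1 lower in DDX6 KO. Of 8 fibroblast markers, 2 passed the filter, none passed the test in either knockout against WT, and their sum was 4.48 to 11.7 CPM. Of 6 primitive endoderm markers only Dab2 passed the filter, and the sum was 8.69 to 13.4 CPM in WT, 4.07 to 6.45 in DGCR8 KO and 17.4 to 24.2 in DDX6 KO. Dab2 itself held 12 to 19 CPM of the sum in DDX6 KO, while Gata4, Gata6, Sox17, Pdgfra and Foxa2 reached at most 9 counts in any library. In bulk samples such as these, fewer cells of a type and less RNA per cell cannot be told apart.

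The 3′ UTRs of the adaptors carry the elements that such proteins and miRNAs read, and the matches that bear on the comparisons are shown here. The ESCC miRNAs, the family that dominates in ESCs, share the seed AAGUGC, and DGCR8 KO cells cannot mature them. Below, capitals mark bases 2 to 8 of the mature miRNAs (RefSeq, GRCm38). Of the family members in that table, miR-291a-3p, miR-294-3p, miR-295-3p, miR-302b-3p and miR-302d-3p share the seed AAGUGCU, miR-290a-3p has AAGUGCC and miR-291b-3p has AAGUGCA, and 1 example of each seed is shown.
miR-294-3p: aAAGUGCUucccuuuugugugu
miR-290a-3p: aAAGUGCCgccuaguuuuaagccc
miR-291b-3p: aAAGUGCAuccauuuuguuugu

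A match to the ESCC seed was searched on the sense strand of the 3′ UTR of the main coding transcript as AGCACTT or GCACTTA, which overlap by 6 bases where both occur. It was present in Zfp36l2 at position 93 of 1822 bases, in Btg1 at position 502 of 4166 bases and in Tob2 at position 586 of 2457 bases. In Btg1 both forms were present and overlapped. The other 6 adaptors held none of these letters in that window, and 16% of the 3′ UTRs of 20591 genes held either form. Those 3′ UTRs had a median length of 803 bases. The 3′ UTRs of Zfp36l2, Btg1 and Tob2 were longer than 75.3%, 94.9% and 83.9% of them. The sites lie at chr17:84185646-84185668 (minus strand), chr10:96619137-96619159 (plus strand) and chr15:81850129-81850151 (minus strand) of GRCm38, all within the 3′ UTR, and are shown with the match in capitals.
Zfp36l2 seed match: cccctccgAGCACTTggactcga
Btg1 seed match: ttttacctAGCACTTaaaatgta
Tob2 seed match: gggaggttAGCACTTtttctaat

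The AU-rich element TATTTAT, the core to which TTP proteins bind, occurred 3 times in each of Zfp36, Zfp36l1 and Zfp36l2, so every gene of the TTP family carried the letters of its own family's element. It occurred 2 times in Btg3, once in Btg2, Tob2 and Pum2, and not in Btg1 or Tob1, against 25.5% of genes with at least 1. The 3 sites of Zfp36 stood close together on the minus strand, starting at positions 575, 590 and 615 of a 774-base 3′ UTR (chr7:28376969-28376991, chr7:28376954-28376976 and chr7:28376929-28376951, GRCm38).
Zfp36 AU-rich 1: gggcccttTATTTATgacgactt
Zfp36 AU-rich 2: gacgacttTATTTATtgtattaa
Zfp36 AU-rich 3: ttttatagTATTTATatatattg

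The Pumilio element TGTANATA occurred 2 times in Pum2, which was not the only adaptor to hold it, against 21.6% of genes with at least 1. Both Pum2 sites lie in its own 3′ UTR of 2861 bases (chr12:8750157-8750180 and chr12:8750410-8750433, plus strand).
Pum2 element 1: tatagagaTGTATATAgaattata
Pum2 element 2: tacagaatTGTATATActtataat

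The TTP family was described first. Zfp36l1, a TTP paralog that binds the same AU-rich elements, was higher in both knockouts. WT libraries 1, 2 and 3 had 145, 125 and 163 CPM, and DGCR8 KO libraries 1, 2 and 3 had 278, 194 and 244. Clone 1 had 344 and 271 CPM, clone 2 had 326 and 278. No knockout library reached down to the highest WT library. The WT mean was 144 ± 19.3 CPM (SD, n = 3). DGCR8 KO averaged 239 ± 42.2 CPM (SD, n = 3), and DDX6 KO averaged 305 ± 35.8 CPM (SD, n = 4). This is a log2 difference of 0.71 (SE 0.144, limma adjusted p = 8.06e-04) in DGCR8 KO and of 1.07 (SE 0.134, limma adjusted p = 1.15e-05) in DDX6 KO. Both calls held under every alternative tried.

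Zfp36l2, a paralog best known from haematopoietic stem cells and the oocyte, stood at 19.2, 17.7 and 16.7 CPM in WT libraries 1, 2 and 3, while DGCR8 KO libraries 1, 2 and 3 stood at 23.0, 50.2 and 33.0. Its DDX6 KO libraries had 34.1 and 28.5 CPM in clone 1 and 28.5 and 17.9 in clone 2. All DGCR8 KO libraries lay above WT, whereas the lowest DDX6 KO library fell within the WT range. The mean in WT was 17.9 ± 1.25 CPM (SD, n = 3), against 35.4 ± 13.8 (SD, n = 3) in DGCR8 KO, a log2 difference of 0.92 (SE 0.278, limma adjusted p = 0.0145). In DDX6 KO the mean was 27.2 ± 6.75 CPM (SD, n = 4) and the log2 difference of 0.56 (SE 0.270) did not pass (limma adjusted p = 0.116). The DGCR8 KO call was lost without DGCR8 KO replicate 2 (adjusted p = 0.0768) and without WT replicate 3 (adjusted p = 0.0672), both in limma.

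Zfp36 encodes TTP itself, the founding member, which limits inflammatory and growth-factor transcripts. It was scarce, with 11 to 97 counts per library. WT libraries 1, 2 and 3 had 10.6, 6.13 and 2.45 CPM, DGCR8 KO libraries 1, 2 and 3 had 22.0, 9.84 and 5.70, clone 1 had 35.5 and 8 and clone 2 had 30.6 and 5.88. The groups overlapped, and in each of them the library whose title ends in 1 was the highest. The log2 differences from WT of 1.30 (SE 0.753) in DGCR8 KO and 1.62 (SE 0.687) in DDX6 KO did not pass in limma (adjusted p = 0.192 and 0.0757). The last number of the title was also tried as a replicate block, in a fit of all 10 libraries. The DGCR8 KO difference was then 0.94 (SE 0.291) and passed (limma adjusted p = 0.0119). That block took in the DDX6 KO libraries, whose numbers were not taken as pairing. Without WT replicate 3 the differences were 0.55 in DGCR8 KO (adjusted p = 0.65) and 0.87 in DDX6 KO (adjusted p = 0.427), and without DDX6 KO replicate 2_2 the latter was 2.13 and passed (adjusted p = 0.0192), all in limma. Over the alternatives the adjusted p of the DDX6 KO difference ran from 0.00364 to 0.427.

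**Figure D1:**
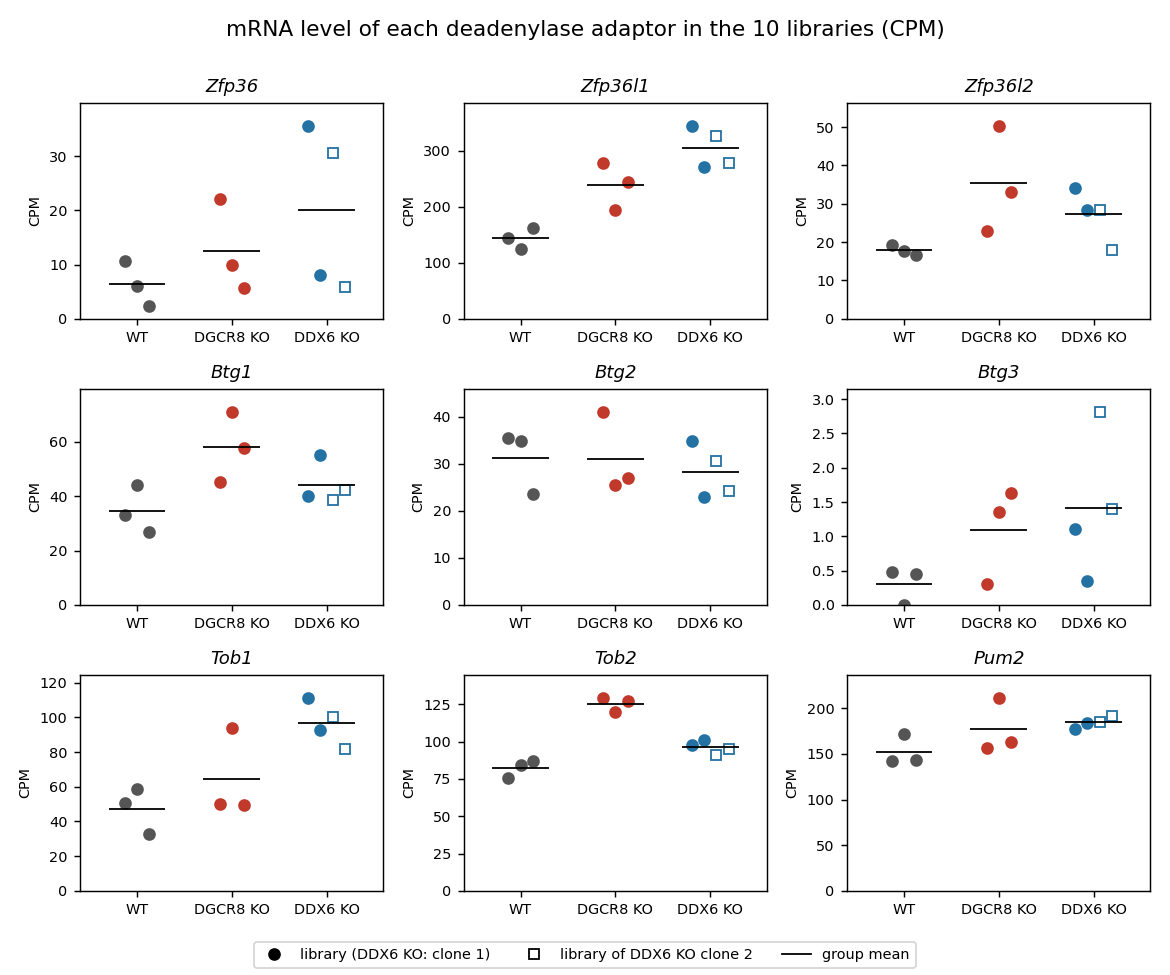
Levels of the 9 adaptors in CPM (vertical axes, from 0), with 1 point for each library and a line at the group mean; open squares are DDX6 KO clone 2. Zfp36l1 lies higher in all knockout libraries than in WT, Tob1 lies higher in all 4 DDX6 KO libraries, and Btg3 stays at or under 2.81 CPM.

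In the BTG/TOB family, Tob1 rose in DDX6 KO and Btg1 and Tob2 rose in DGCR8 KO. Tob1, which bridges CAF1 to mRNA-bound proteins and slows the cell cycle, had 50.4, 58.6 and 33.0 CPM in WT libraries 1, 2 and 3, while DGCR8 KO libraries 1, 2 and 3 had 50.2, 93.7 and 49.7. In DDX6 KO it had 111 and 92.9 CPM in clone 1 and 100 and 82.0 in clone 2. Every DDX6 KO library lay above every WT library, while DGCR8 KO and WT libraries overlapped. The DDX6 KO mean of 96.5 ± 12.2 CPM (SD, n = 4) exceeded the WT mean of 47.3 ± 13.1 (SD, n = 3) by 1.1 on the log2 scale (SE 0.212, limma adjusted p = 6.47e-04), and this call held under every alternative tried. In DGCR8 KO the mean was 64.5 ± 25.2 CPM (SD, n = 3) and the log2 difference 0.48 (SE 0.236, limma adjusted p = 0.124).

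Tob2, the close paralog of Tob1, had 75.9, 84.2 and 86.7 CPM in WT libraries 1, 2 and 3, while DGCR8 KO libraries 1, 2 and 3 had 129, 120 and 127. Clone 1 had 97.8 and 101 CPM, clone 2 had 90.8 and 95.2. The 3 groups did not overlap, and DGCR8 KO was the highest. DGCR8 KO averaged 125 ± 4.56 CPM (SD, n = 3) against the WT mean of 82.2 ± 5.68 (SD, n = 3), a log2 difference of 0.60 (SE 0.113, limma adjusted p = 4.36e-04) that passed under every alternative tried. The DDX6 KO mean of 96.2 ± 4.41 CPM (SD, n = 4) differed from WT by 0.22 on the log2 scale (SE 0.108, limma adjusted p = 0.131). With total counts in place of normalised totals that difference was 0.34 and passed (adjusted p = 0.0189).

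Btg1, an antiproliferative cofactor that binds CAF1, had 33.1, 44.0 and 27.0 CPM in WT libraries 1, 2 and 3, while DGCR8 KO libraries 1, 2 and 3 had 45.3, 70.9 and 57.8. Clone 1 had 39.9 and 55.0 CPM, clone 2 had 38.7 and 42.3. The lowest DGCR8 KO library exceeded the highest WT library by a small margin, and DDX6 KO overlapped WT. DGCR8 KO averaged 58.0 ± 12.8 CPM (SD, n = 3) against the WT mean of 34.7 ± 8.60 (SD, n = 3), a log2 difference of 0.77 (SE 0.203, limma adjusted p = 0.00597). The call was lost without WT replicate 3 (log2 difference 0.55, limma adjusted p = 0.0719). In DDX6 KO Btg1 had 44.0 ± 7.48 CPM (SD, n = 4), a log2 difference of 0.39 (SE 0.197, limma adjusted p = 0.137).

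Btg2, an immediate early gene and a target of p53, was close to the WT level in both knockouts. WT libraries 1, 2 and 3 had 35.5, 34.8 and 23.6 CPM, DGCR8 KO libraries 1, 2 and 3 had 41.0, 25.5 and 26.9, clone 1 had 34.8 and 23.0, and clone 2 had 30.6 and 24.3. All groups overlapped. The log2 difference was 0.06 in DGCR8 KO (95% interval -0.41 to 0.52, limma adjusted p = 0.864) and -0.10 in DDX6 KO (95% interval -0.54 to 0.33, limma adjusted p = 0.735), so a change of 2-fold in either direction lies outside both intervals. The sign of the DGCR8 KO value turned under 7 of 21 alternatives.

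Btg3, the remaining BTG gene, was near the floor of detection. It had 1, 0 and 2 counts in WT libraries 1, 2 and 3, while DGCR8 KO libraries 1, 2 and 3 had 1, 4 and 4. Clone 1 had 3 and 1 counts, clone 2 had 8 and 5. Only 2 DGCR8 KO libraries and the clone 2 libraries exceeded 3 counts, and no fold is given.

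Pum2, the Pumilio protein measured, had 142, 172 and 143 CPM in WT libraries 1, 2 and 3, while DGCR8 KO libraries 1, 2 and 3 had 157, 211 and 163. Clone 1 had 177 and 184 CPM, clone 2 had 185 and 192. The DDX6 KO libraries all lay above WT, and the DGCR8 KO libraries overlapped WT. The WT mean was 153 ± 17.1 CPM (SD, n = 3). DGCR8 KO averaged 177 ± 29.6 CPM (SD, n = 3), and DDX6 KO averaged 184 ± 6.32 CPM (SD, n = 4). The log2 differences of 0.20 (SE 0.125, limma adjusted p = 0.215) and 0.28 (SE 0.116, limma adjusted p = 0.0718) did not pass. Without WT replicate 2 (adjusted p = 0.0397) or without DGCR8 KO replicate 2 (adjusted p = 0.0342) the DDX6 KO difference passed in limma.

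Counted over the family, 4 of 8 tested adaptors passed in DGCR8 KO against WT (Zfp36l1, Zfp36l2, Btg1 and Tob2), all of them higher, against 19.9% of the 11683 genes tested that passed as higher. None of the 4 was beyond 2-fold with an adjusted p under 0.05 (limma), a class that held 8.93% of genes. In the same contrast 4 adaptors had no overlap between the libraries of the groups and were higher, against 23.7% of genes. The count fell to 2 without WT replicate 3, the deepest library, when Zfp36l1 and Tob2 passed. It was 5 with the last number of the title as a replicate block in the fit of all 10 libraries, when Zfp36 joined. The median log2 difference of the 8 adaptors was 0.65, and that of all genes tested was 0.00425.

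In DDX6 KO against WT 2 of 8 passed (Zfp36l1 and Tob1), both higher, against 17.9% of genes, and both were beyond 2-fold, against 7.55%. Over the alternatives the log2 difference ran from 0.936 to 1.19 for Zfp36l1 and from 0.799 to 1.3 for Tob1. Neither was beyond 2-fold in all of them. The groups did not overlap for 4 adaptors that were higher (Zfp36l1, Tob1, Tob2 and Pum2), against 20.5% of genes. The count was 4 without WT replicate 2, when Btg1 and Pum2 joined, and 4 without DDX6 KO replicate 2_2, when Zfp36 and Zfp36l2 joined. The median log2 difference was 0.47, and that of all genes was 0.02. No adaptor passed as lower in limma in either knockout, and both contrasts share the WT libraries. Dab2, whose level is given above with the endoderm markers, was also higher in DDX6 KO than in WT, and its part in the DDX6 KO results was not tested.

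**Figure D2:**
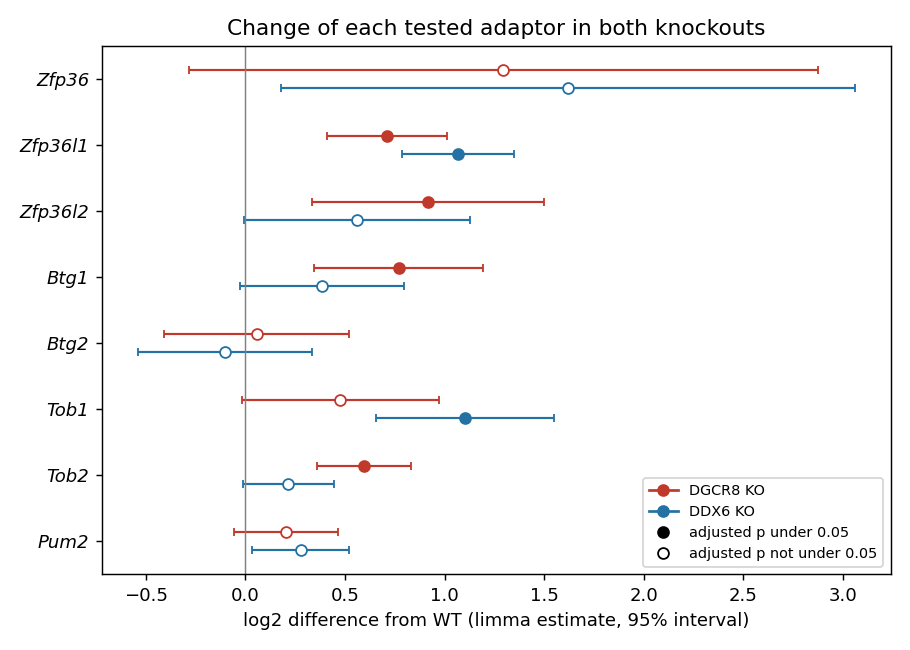
Log2 difference from WT (horizontal axis, limma estimate with its 95% interval) of the 8 tested adaptors in DGCR8 KO and DDX6 KO; filled points have an adjusted p under 0.05. Filled points are Zfp36l1, Zfp36l2, Btg1 and Tob2 for DGCR8 KO and Zfp36l1 and Tob1 for DDX6 KO.

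Both clones gave the same 2 calls. Against WT, Zfp36l1 was higher by 1.08 on the log2 scale in clone 1 (SE 0.164, limma adjusted p = 2.26e-04) and by 1.06 in clone 2 (SE 0.162, limma adjusted p = 2.37e-04). Tob1 was higher by 1.19 in clone 1 (SE 0.253, limma adjusted p = 0.00284) and by 1.02 in clone 2 (SE 0.252, limma adjusted p = 0.00772). Among all genes 13.1% passed as higher in clone 1 and 13% in clone 2. Between the clones 0 of 8 adaptors passed in limma or in edgeR, and 0 had an unadjusted limma p under 0.05, while 0.0428% of all genes passed in limma. The 95% intervals of the clone 2 minus clone 1 difference were narrow for Zfp36l1 (-0.38 to 0.34) and Tob2 (-0.40 to 0.20) and wide for Zfp36 (-1.89 to 1.06) and Zfp36l2 (-1.15 to 0.18).

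**Figure D3:**
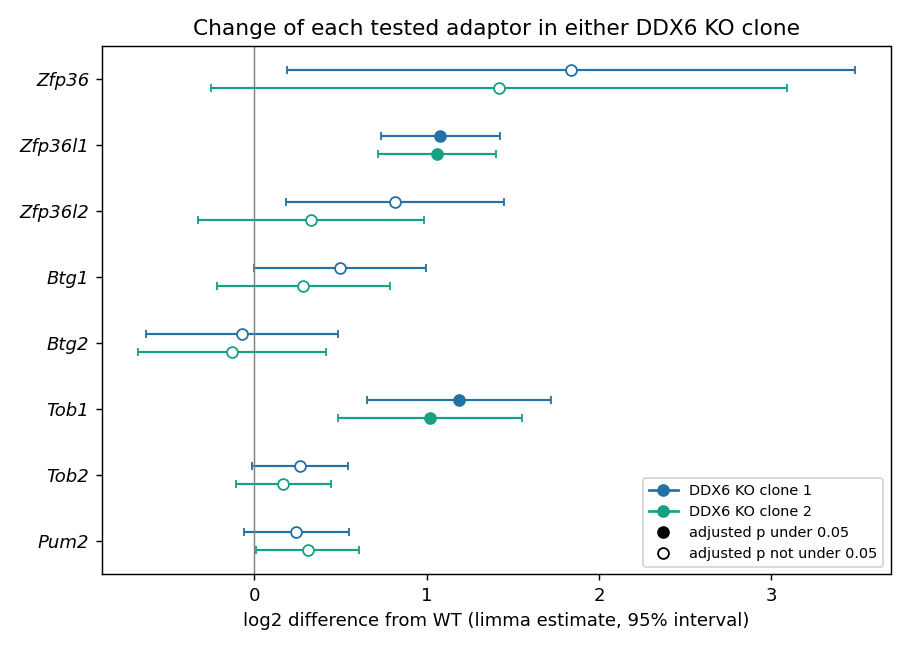
Log2 difference from WT (horizontal axis, limma estimate with its 95% interval) of the 8 tested adaptors in DDX6 KO clone 1 and clone 2; filled points have an adjusted p under 0.05. Zfp36l1 and Tob1 are filled in both clones, and the intervals of the clones overlap for all 8 genes.

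The direct contrast of the knockouts asked which adaptors differ between loss of miRNAs and loss of DDX6. In it 3 of 8 adaptors passed, against 44% of genes. Tob2 was higher in DGCR8 KO by 0.38 on the log2 scale (SE 0.103, limma adjusted p = 0.00607), and the libraries of the knockouts did not overlap. Tob1 was lower in DGCR8 KO by a log2 difference of -0.63 (SE 0.203, limma adjusted p = 0.0180) and Zfp36l1 by -0.36 (SE 0.128, limma adjusted p = 0.0306), each with an overlap between the groups. The paralogs Tob1 and Tob2 thus differed in opposite directions. Dab2 and the fibroblast marker Col1a1 also passed as lower in DGCR8 KO than in DDX6 KO, and their part in the lower values of Tob1 and Zfp36l1 was not tested. Btg1 (0.38, adjusted p = 0.0940) and Zfp36l2 (0.36, adjusted p = 0.240) did not pass in limma, and Btg2, Pum2 and Zfp36 had 95% intervals that span 0.

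The calls of the direct contrast depended on the libraries and the scaling. The Tob2 call was lost with total counts in place of normalised totals (adjusted p = 0.0501), with clone 1 as the only DDX6 KO clone (adjusted p = 0.0725) and without the 4 libraries whose title ends in 1 (adjusted p = 0.137), all in limma. The Tob1 call was lost without DGCR8 KO replicate 1 (adjusted p = 0.120) and without DGCR8 KO replicate 3 (adjusted p = 0.0835), and the Zfp36l1 call without DGCR8 KO replicate 2 (adjusted p = 0.177), without DDX6 KO replicate 1_1 (adjusted p = 0.09) and without DDX6 KO replicate 2_1 (adjusted p = 0.0767), all in limma. With clone 2 as the only DDX6 KO clone the Tob1 call was lost too, and the Zfp36l1 call was lost with either clone alone. Neither call held without the 4 libraries whose title ends in 1. Btg1 passed without DGCR8 KO replicate 1 (adjusted p = 0.0312) and without DDX6 KO replicate 1_2 (adjusted p = 0.0492), and Zfp36l2 passed without DGCR8 KO replicate 1 (adjusted p = 0.0368).

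The 3 adaptors with an ESCC seed match, Zfp36l2, Btg1 and Tob2, were also the 3 with the highest log2 difference between DGCR8 KO and DDX6 KO, from 0.36 to 0.38. They passed in DGCR8 KO against WT and not in DDX6 KO against WT, but of the 3 only Tob2 passed the direct test of that difference. Of the 5 tested adaptors without a match, Zfp36l1 passed in both, Tob1 in DDX6 KO, and the values of the direct contrast ran from -0.63 (Tob1) to 0.16 (Btg2). This order did not hold without DGCR8 KO replicate 2, when Btg2, without a match, stood at 0.30, above Btg1 at 0.22 and Zfp36l2 at 0.05, nor with clone 1 as the only DDX6 KO clone, when Btg2 at 0.12 stood above Zfp36l2 at 0.09. The seed matches were looked up with these results known, the genes are few, and the order is a description of these 8 genes.

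**Figure D4:**
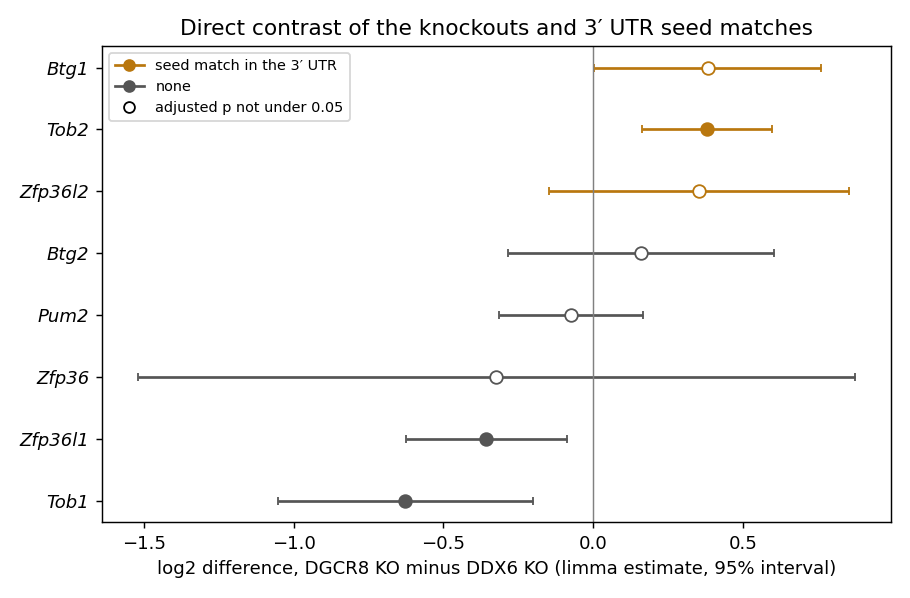
Log2 difference of DGCR8 KO minus DDX6 KO (horizontal axis, limma estimate with its 95% interval) of the 8 tested adaptors, ordered by size; ochre marks genes with an ESCC seed match in the 3′ UTR and filled points have an adjusted p under 0.05. The 3 ochre genes lie between 0.36 and 0.38 and the other 5 between -0.63 and 0.16, a split that did not hold without DGCR8 KO replicate 2.

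The spread of Zfp36 within groups followed the number at the end of the library's title. Its library with the number 1 exceeded the mean of the other libraries of its group or clone by a ratio of 2.46 in WT, 2.84 in DGCR8 KO, 4.44 in clone 1 and 5.21 in clone 2. In a fit with a term for the number 1 beside the group, added after the data were seen, Zfp36 was higher in the libraries numbered 1 by 1.88 on the log2 scale (SE 0.235, limma adjusted p = 2.81e-04), against 0.591% of genes that passed as higher. It was the only adaptor of 8 to pass. Btg2 was also highest in the library numbered 1 of all 4 groups and clones, but its log2 difference of 0.49 (SE 0.142, limma adjusted p = 0.138) did not pass.

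Immediate early genes shared that split. Of 14 such genes listed, 11 were tested. In the libraries numbered 1, 7 passed as higher (Egr1, Fosb, Junb, Fos, Dusp1, Ier2 and Klf6), against 0.591% of all genes. The transcription factor genes Egr1, Fosb, Junb and Fos differed most, by 2.33, 1.78, 1.55 and 1.38 on the log2 scale. Fos stood at 262, 128 and 73.3 CPM in WT libraries 1, 2 and 3, while DGCR8 KO libraries 1, 2 and 3 stood at 367, 153 and 143. Clone 1 had 572 and 229 CPM, clone 2 had 477 and 180. Summed over the list, the libraries numbered 1 had 1040 CPM in WT and 1960 to 2090 in the knockouts, and the others had 629 to 722 in WT and 1020 to 1100 in the knockouts. What the number stands for is not given in the sources used here.

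Between libraries with the same number, Zfp36 was higher in DGCR8 KO than in WT by a ratio of 2.09, 1.60 and 2.33 for the numbers 1, 2 and 3. In DDX6 KO the ratio was 3.36 in clone 1 and 2.90 in clone 2 for the number 1, and 1.30 and 0.958 for the number 2. The DGCR8 KO ratio was thus above 1 at every number. The numbers of the DDX6 KO libraries were not taken as pairing them with WT. The clone 2 library numbered 2 deviated with WT library 3 (r = 0.166) and not with WT library 2 (r = -0.0399). The ratios of the knockouts are therefore not compared with each other. Without the 4 libraries numbered 1, an alternative added after the data were seen, Zfp36 differed from WT by 1.08 in DGCR8 KO (adjusted p = 0.15) and by 0.91 in DDX6 KO (adjusted p = 0.239) on the log2 scale in limma. The same omission kept the 4 calls in DGCR8 KO and the 2 in DDX6 KO against WT, and left 1 adaptor, Zfp36l2, in the direct contrast.

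**Figure D5:**
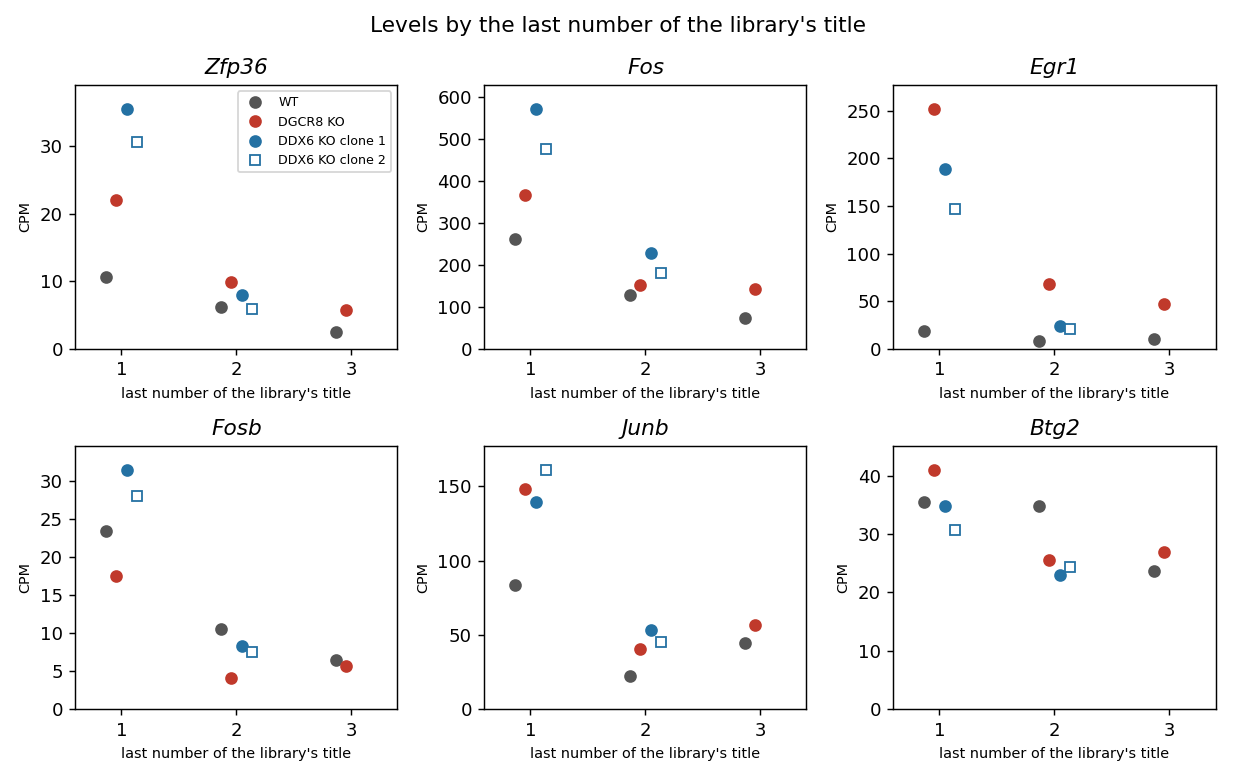
Levels in CPM (vertical axes, from 0) of Zfp36, 4 immediate early genes and Btg2 by the last number of the library's title (horizontal axis), with 1 point for each library. For Zfp36, Fos, Egr1, Fosb and Junb the library numbered 1 is the highest of its own group or clone, as in Zfp36 with 35.5 CPM against 8 in clone 1.

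The promoters of Zfp36 and Btg2 hold matches to elements known from immediate early genes, searched on the strand given in RefSeq (GRCm38.p6) from 250 bases before to 50 after the start, with both motifs palindromic in form and free of overlap with each other. A CArG box, to which serum response factor binds, was found in Zfp36 with its first base 58 bases before the start, and in no other of the 8 adaptors with an entry. It occurred in 1.63% of 32851 promoters and in 1 of 10 immediate early genes with an entry (Egr2). The cAMP response element TGACGTCA was found in Btg2 with its first base 166 bases before the start, in 1.79% of promoters, and in 1 of the 10 immediate early genes (Dusp1). The sites lie at chr7:28379267-28379296 and chr1:134079304-134079331 on the minus strand. The Zfp36 site lies inside the Gencode span of the gene (chr7:28376784-28380253), which begins further upstream than the RefSeq start used here.
Zfp36 CArG box: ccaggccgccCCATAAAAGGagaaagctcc
Btg2 cAMP response element: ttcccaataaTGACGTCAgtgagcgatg

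The enzymes that adaptors recruit were measured alongside. Of 19 genes for CCR4-NOT and PAN subunits, PARN and poly(A)-binding proteins, all tested, 5 were higher and 4 lower in DGCR8 KO against WT (median log2 difference 0.12), where 19.9% of all genes passed as higher and 16.5% as lower. In DDX6 KO 4 were higher and 6 lower (median -0.14), where 17.9% of all genes passed as higher and 16.6% as lower. In DGCR8 KO the deadenylase genes Cnot6 (log2 difference 1.49, SE 0.102, limma adjusted p = 5.05e-09) and Cnot6l (1.38, SE 0.155, limma adjusted p = 2.04e-06) and the poly(A)-binding protein gene Pabpc4 (-1.09, SE 0.191, limma adjusted p = 2.22e-04) were beyond 2-fold. No gene of the list was beyond 2-fold in DDX6 KO. In the direct contrast 7 were higher and 4 lower in DGCR8 KO. Of all 11683 genes tested, 2688 passed as higher and 2456 as lower there, or 44% in either direction. Cnot6 was beyond 2-fold (1.15, SE 0.0928, limma adjusted p = 3.12e-08).

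Other RNA-binding proteins that bring deadenylases to mRNAs or stabilise AU-rich mRNAs were listed too, 18 in all, of which 17 were tested. In DGCR8 KO 6 were higher and 1 lower than in WT, where 19.9% of all genes passed as higher and 16.5% as lower. The lower one was Elavl1, which stabilises AU-rich mRNAs and is named here after its value was seen (log2 difference -0.60). The largest differences were those of the GW182 genes Tnrc6a (log2 difference 1.72) and Tnrc6b (1.37), which link Argonaute to CCR4-NOT, the germ cell repressor Nanos3 (1.68) and the polyadenylation-element binder Cpeb3 (1.16). In DDX6 KO 5 were higher and 3 lower, where 17.9% of all genes passed as higher and 16.6% as lower. The largest differences there were those of Nanos1 (-1.59), Cpeb4 (1.44), Tnrc6a (1.25) and Tnrc6b (1.16). All of these passed in limma, with adjusted p from 2.15e-09 (Tnrc6a in DGCR8 KO) to 0.00896 (Nanos3).

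For the response classes to which Zfp36 and Btg2 belong, the counts were as follows. Of 11 tested immediate early genes, 6 passed in DGCR8 KO against WT in limma, all higher, against 19.9% of all genes that passed as higher. They were led by Egr1 (log2 difference 3.09), Jun (2.07), Atf3 (1.81) and Dusp1 (1.28). In DDX6 KO 5 passed, all higher, against 17.9% of all genes, led by Atf3 (2.23), Fos (1.34), Jun (1.27) and Klf6 (1.24). These values take in libraries of all numbers, and 7 of the 11 genes differed by number as given above. The numbers were not balanced between the groups. WT and DGCR8 KO had libraries numbered 1, 2 and 3, and each DDX6 KO clone had libraries numbered 1 and 2. The part of this imbalance in the DDX6 KO values was not tested. For Fos the DDX6 KO and WT libraries overlapped. Of 10 p53 targets, 3 were higher and 4 lower in DGCR8 KO, where 19.9% of all genes passed as higher and 16.5% as lower. The apoptosis gene Pmaip1 was beyond 2-fold there (2.49, SE 0.302, limma adjusted p = 5.05e-06). In DDX6 KO 5 of 10 passed, all lower, against 16.6% of all genes that passed as lower, with Bbc3 beyond 2-fold (-1.01, SE 0.182, limma adjusted p = 3.65e-04).

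The genes most like each adaptor across the 10 libraries were found by Pearson's r of log2 CPM. This is a description, since the libraries fall into 3 genotypes and differ in depth. Zfp36 was most like Fos (r = 0.963) and Nup62cl (r = 0.902). Zfp36l1 was most like Gpc4 (r = 0.98) and Rbbp7 (r = 0.966), and Zfp36l2 most like Mospd2 (r = 0.941) and Phf13 (r = 0.930). In the other family Tob1 was most like Stxbp3 (r = 0.970) and Lims1 (r = 0.968), Tob2 most like Pcolce2 (r = 0.990) and Crebrf (r = 0.98), Btg1 most like Tle1 (r = 0.984) and Arfgap3 (r = 0.922), and Btg2 most like Zc2hc1a (r = 0.914) and Dusp5 (r = 0.867). Pum2 was most like Prkra (r = 0.962) and Cldnd1 (r = 0.945). The partner of Zfp36 was thus an immediate early gene, Fos, and each of the others had a different pair.

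All 9 adaptors are protein coding. On GRCm38 the TTP family lies at chr7:28376784-28380253 (Zfp36), chr12:80107754-80113013 (Zfp36l1) and chr17:84183931-84187947 (Zfp36l2), all on the minus strand. The BTG/TOB family lies at chr10:96617006-96622809 (Btg1, plus strand), chr1:134075170-134079120 (Btg2, minus), chr16:78332637-78377192 (Btg3, minus), chr11:94211454-94215495 (Tob1, plus) and chr15:81848272-81858796 (Tob2, minus), and Pum2 lies at chr12:8674134-8752581 on the plus strand. The median log2 difference of all tested genes on each of these 8 chromosomes lay between -0.06 and 0.08 in the 3 contrasts.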

How the data were processed

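The deposited table holds raw counts of reads that mapped to 1 place, by gene. As the submitters' notes and the table's header state, the authors trimmed reads with cutadapt 1.14, aligned them to mm10 with STAR 2.5.3a and counted sense-strand exon reads with featureCounts 1.5.3. Molecular identifiers are not mentioned, and the floor of 3 counts covers counting error only. The 92 spike-in sequences were set apart. The 11683 genes that reached 3 CPM in 3 or more libraries were tested with limma 3.58.1 (voom weights, TMM scaling from edgeR 4.0.16, R 4.3.3) in 1 fit of all 10 libraries with the group as its term, two-sided, with Benjamini-Hochberg adjustment over all genes tested. The study used limma with the same filter. "Passed" means an adjusted p under 0.05, and "beyond 2-fold" adds a log2 difference beyond 1. Another fit, with 4 groups, separated the clones. No library of a group matched another within counting noise (chi-square per gene at least 3.52), so none was taken as a library deposited 2 times.

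Same-numbered WT and DGCR8 KO libraries deviated together from their group means (r = 0.138, 0.259 and 0.274 across genes), so their numbers were taken as pairing these groups. The main fit leaves this pairing out, and the replicate block was tried as an alternative. DDX6 KO numbers were not taken as pairing. Their r with the WT library of the same number was 0.118 and 0.106 in clone 1 for the numbers 1 and 2. In clone 2 it was 0.134 and -0.0399, so the pairs did not all deviate together.

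Genes were named by rule: all adaptors, both targeted genes, list members beyond 2-fold (at most 4 a list and contrast) and the 2 genes most like each adaptor (mean of at least 10 CPM). Members of a list named as passing in the fit by number were named after their values were seen. The adaptors and lists were chosen with earlier results of these data known. Symbols (51274 of 51467 identifiers) and 3′ UTRs came from Gencode vM21 on the same build. The tests were tried on simulated data, and the alternatives are given in the closing section. Some matches to the Pumilio element are not reported here.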

Additional observations from a re-analysis of the deposited data

Results flagged for a closer look

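In the direct contrast of the knockouts, 3 of 8 tested adaptors passed, against 44% of all genes tested. They were flagged because their change from WT differed between DGCR8 KO and DDX6 KO by a test of the difference itself. None of the 3 calls held under every alternative tried. The log2 difference of DGCR8 KO minus DDX6 KO was -0.63 for Tob1 and -0.36 for Zfp36l1, which were higher in DDX6 KO, and 0.38 for Tob2, which was higher in DGCR8 KO. No adaptor had a DDX6 KO library far enough from the other 3 to be singled out among 9 genes examined (groups of 3 libraries were not examined).

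Spike-in sequences were counted in every library and were used in no comparison. They made up at least 1.1% and at most 2.36% of the counts of a library, with 1.1% in DDX6 KO replicate 1_1.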

How the results depend on the processing

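Over 552 refits of single adaptors, 503 kept direction and side of the threshold, 16 lost a call, 18 gained one and 15 changed sign, none of these 15 with a call. The 4 adaptors passing in DGCR8 KO against WT were 4 under every planned scaling, filter and tool, 5 with the replicate block (Zfp36 added), and 2 to 4 when a library was left out. In DDX6 KO against WT the count of 2 became 4 with total counts and 4 when only the libraries of both groups were fitted, 3 with the replicate block (Zfp36 added, adjusted p = 0.00364), 3 in edgeR (Zfp36 added, adjusted p = 0.0296) and 2 to 4 when a library was left out. In the direct contrast the count of 3 became 2 with total counts (Tob2 lost), 1 with clone 1 only, 1 with clone 2 only, 1 without the 4 libraries whose title ends in 1 (chosen after seeing the data), 4 with the replicate block (Btg1 added) and 2 to 4 when a library was left out. The count of 0 between clones held in all 4 alternatives. Same-numbered pairs with a DDX6 KO library did not all deviate together from their group means, with r above 0.1 for the number 1 and as low as -0.0806 for the number 2, so the numbers were not taken as pairing DDX6 KO libraries.

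The sign changed for Btg2 in DGCR8 KO against WT with limma-trend (-0.0182), DESeq2 (-0.0038), the replicate block (-0.0156), thinned counts (-0.062) and without the libraries numbered 1 (-0.0978), and in DDX6 KO against WT with total counts (0.0241). Leaving out 1 library, Btg2 ran from -0.189 to 0.2 in DGCR8 KO, from -0.348 to 0.00701 in DDX6 KO and from -0.0865 to 0.3 in the direct contrast, where Zfp36 ran from -0.89 to 0.0728 and Pum2 from -0.209 to 0.00124. Without the libraries numbered 1 Zfp36 was at 0.175 there. The cause of these changes was not tested. The 3′ UTR match counts were the same on the transcript with the longest 3′ UTR. Depth limits Btg3, which had at most 8 counts in a library.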
